A study of Homo sapiens with 6 samples.

Results

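The genes described here build the matrix outside cells or join cells to each other, and were read in NB4 cells, a line of acute promyelocytic leukemia that carries the PML-RARA fusion. The members were taken by gene symbol: collagen chains (COL), laminin chains (LAMA, LAMB, LAMC), claudins (CLDN), cadherins (CDH, PCDH), fibrillins and fibulins (FBN, FBLN), lysyl oxidases (LOX, LOXL), tight junction scaffolds (TJP), and 3 single genes, CCDC80, FN1 and SPARC. In all, 60 of the 18625 genes in the deposited human table had such a symbol, and 56 of them had a mean of at least 10 normalized counts over the 6 libraries and were tested. COL26A1, COL15A1, CLDN19 and CDH17 lay below that mean.

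RNA-seq was performed on NB4 cells kept for 3 days with DMSO, the solvent control, or with 10 μM Tanshinone I (Tan I), a lipid-soluble diterpene of Salvia miltiorrhiza, with 3 libraries in each group. The comparison asks which genes differ in RNA level after Tan I. All 6 libraries came from 1 cell line without a genetic change between the groups, and nothing in the labels says whether the 3 libraries of a group came from separate cultures, so p-values measure only the spread between these libraries. In bulk RNA, fewer cells of a type and less RNA per cell cannot be told apart. The recovered reads on the listed genes ran from 25356503 to 31679138 in DMSO and from 21502760 to 24298627 in Tan I.

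Collagens are triple helices of 3 chains. Fibrillar collagens form the banded fibers of connective tissue, collagen IV and the laminins, each an assembly of an alpha, a beta and a gamma chain, form the sheet of the basement membrane, and lysyl oxidases cross-link the fibers. Claudins seal tight junctions and are tied to the cytoskeleton by the TJP scaffolds, while cadherins hold neighboring cells together in a calcium-dependent way. Leukocytes grown in suspension have no basement membrane and few lasting junctions, and many of these genes are best known from epithelial cells, endothelial cells and fibroblasts.

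The cell line was checked against marker genes. MPO, myeloperoxidase of promyelocyte granules, had 60389 to 64107 normalized counts with DMSO and 33279 to 39449.8 with Tan I. Of the 8 promyelocyte markers 7 were listed, all but ELANE, with a sum of 85720 to 100546 in DMSO and 56043 to 72556 in Tan I. The sums over markers of other cell types were far lower, but single markers were not always. The promyelocyte marker CEBPE had a mean of 287 with DMSO and 259 with Tan I, below the endothelial marker TIE1 at 1225 and 1598. CTSG, another promyelocyte marker, lay above TIE1 with DMSO (1909) and below it with Tan I (1199). The other listed promyelocyte markers had means above TIE1 in both groups. By the thresholds given below, MPO and CTSG were called lower (log2 fold change -0.78 and -0.69, unadjusted p = 0.000988 and 0.0262 from limma). Their adjusted p from limma was 0.999, while DESeq2 gave MPO an adjusted p of 4.33e-09. The call of CTSG was lost without DMSO replicate 2 (-0.51), DMSO replicate 3 (-0.72) or Tan I replicate 1 (-0.45). PRTN3, AZU1, CD33, CEBPE and SRGN were not called. Of the fibroblast markers 2 of 8 were listed, COL1A1, itself a member, and PDGFRB. Their sum was 120.4 to 152 in DMSO and 99.7 to 151 in Tan I. Of the epithelial markers 5 of 8 were listed (EPCAM, KRT8, ESRP1 and the members CLDN4 and CLDN7; sum 442 to 621 and 471 to 675). Of the endothelial markers 5 of 8 were listed (PECAM1, VWF, TIE1, EGFL7 and the member CLDN5; sum 1574 to 1706 and 1939 to 2132, most of it TIE1). The listed markers of these cell types were above 0 in each library. COL1A2, COL3A1, CDH1, KRT18, KRT19, CDH5 and KDR, which also define them, were looked up but are not among the genes listed. The part of such cells in the members' values was not tested.

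The libraries also differed from each other in a way that the treatment did not follow. The first principal component of the 16887 genes tested held 70.8% of the variance, with DMSO replicate 2 and Tan I replicate 3 at one end and DMSO replicate 1 and Tan I replicate 1 at the other. Where the call of a gene described here changed without one of these libraries, that is given beside it.

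A few members carried most of the RNA of the group. To compare genes, normalized counts were divided by the length of each gene's exons in kb (GENCODE release 44). COL23A1, a transmembrane collagen, had the highest level per kb, 823 ± 25.5 with DMSO and 888 ± 92.7 with Tan I (SD, n = 3 each). LAMC1, the gamma chain of most laminins, followed with 351 ± 41.7 and 362 ± 58.5, and SPARC, a collagen-binding matricellular glycoprotein, with 344 ± 44.1 and 336 ± 46.9. LAMC1 and SPARC did not differ beyond their spread.

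Below these came CDH24, a classical cadherin that binds catenins, at 266 ± 21.6 per kb in DMSO, and CLDN15, a claudin that forms cation pores, at 261 ± 23.6, again within the spread of each other. COL6A1, a chain of the beaded filaments of collagen VI, stood at 218 ± 32.6, COL9A2 and COL9A3, chains of the fibril-associated collagen IX, at 167 ± 6.94 and 155 ± 7.98, CLDN9 at 124 ± 26.8 and COL7A1, the anchoring fibril collagen of skin, at 100.4 ± 3.06. All other members were below these 10 genes in DMSO. The next was FBN2, fibrillin-2 of elastic microfibrils, at 62.5 ± 3.83 per kb, with COL27A1, a fibrillar collagen of cartilage, at 59.3 ± 5.67. Of the 60 members, 25 had a mean of at least 100 normalized counts over the 6 libraries, and COL23A1, the highest, had 3588 ± 111 with DMSO and 3869.9 ± 404 with Tan I.

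**Figure D1:**
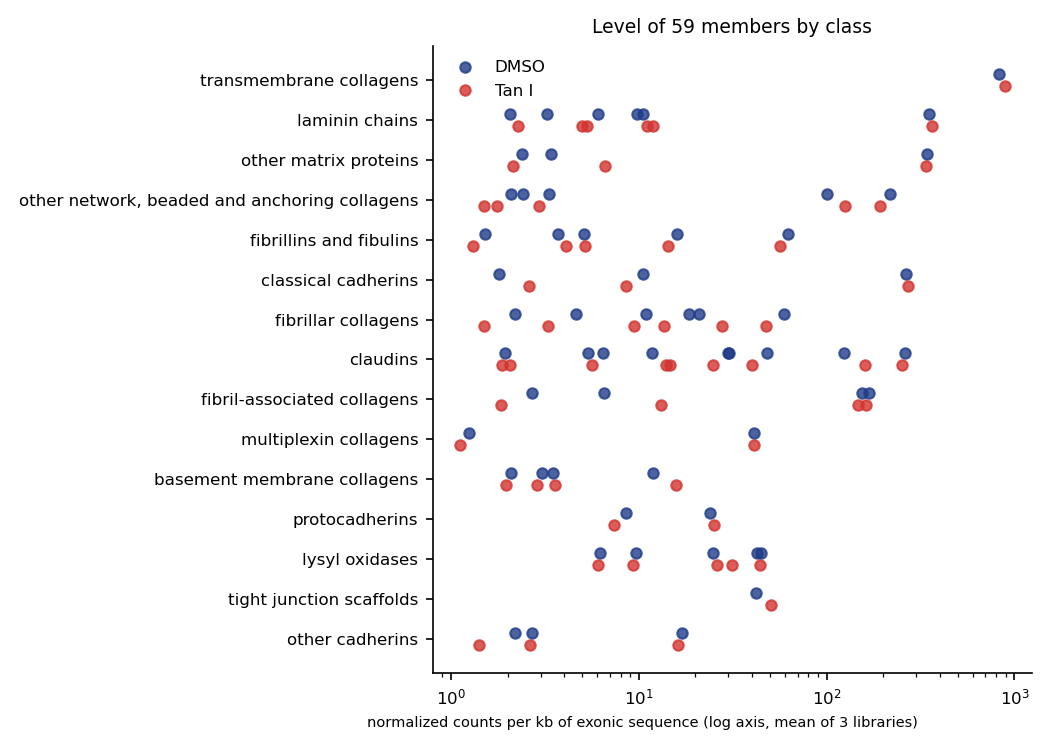
Mean level of 59 of the 60 members in normalized counts per kb of exonic sequence (horizontal log axis), by class, with DMSO in blue and Tan I in red, each point the mean of 3 libraries of 1 gene. COL23A1 stands alone at 823 per kb in DMSO, most classes hold 1 or 2 genes far above the rest, and the blue and red points of a class lie close together.

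Of the chains that assemble with each other, several were unequal. LAMC1 had 2965 ± 353 normalized counts with DMSO, while the beta chains LAMB1 and LAMB2 stood at 6.09 ± 3.72 and 10.5 ± 0.626 per kb, LAMB3 at 9.80 ± 1.54, and LAMA5, the alpha chain listed here, at 2.06 ± 0.854, all far below LAMC1 on the per kb scale. COL1A1, the main chain of collagen I, had 74.2 to 119.5 normalized counts with DMSO and 65.5 to 112 with Tan I. Its partner COL1A2 is not among the genes listed.

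Members were then compared between Tan I and DMSO within the fit over all genes. A gene was called with an unadjusted p of at most 0.05 and a log2 fold change of at least 0.25 in size on the log2(normalized count + 1) scale, which understates the change of low genes. These are also the thresholds of the study. COL16A1, COL7A1 and CCDC80 were called higher in Tan I and CLDN5 lower, 4 of the 56 members tested, where 2.42% of all genes tested were called. In the direction of higher, these were 3 members beside 1.32% of all genes, and in the direction of lower, 1 member beside 1.10%. With Benjamini-Hochberg adjustment over all genes tested, limma called 0 members and 0% of all genes, while 410 genes had an unadjusted p of at most 0.05. edgeR also called 0 genes after adjustment, and DESeq2 called 16 of the 14922 genes to which it gave an adjusted p, 0.107%, and 0 members. Without adjustment, edgeR and DESeq2 each called the same 4 members, beside 2.42% and 2.49% of all genes. The lowest adjusted p of a member in any of these tools was 0.246, for COL16A1 in DESeq2.

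COL16A1 encodes a chain of collagen XVI, which binds along fibrils and to integrins. Its gene (ENSG00000084636) maps to chromosome 1 (31652263 to 31704319, - strand) of GRCh38, has 71 exons in its canonical transcript, and 117 bases of its exons overlap exons of the antisense gene PEF1-AS1. COL16A1 had 45.7, 81.9 and 52.4 normalized counts with DMSO and 113, 115 and 137 with Tan I, from 49, 85 and 67 and 116, 109 and 103 reads. Every Tan I library lay above every DMSO library, and DMSO replicate 2 was the highest of its group. This made a log2 fold change of 1.05 ± 0.26 (SE; 0.44 to 1.66, 95% confidence interval), an adjusted p of 0.999 and an unadjusted one of 0.00444 from limma. It was called in all 16 alternative fits, with a log2 fold change between 0.88 and 1.29. COL16A1 is not among the genes drawn in the study's heatmap, which holds only genes that differed in both NB4 cells and zebrafish embryos. Its absence there does not show whether the study called it in NB4 cells.

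COL7A1 (ENSG00000114270) forms the anchoring fibrils that fasten epithelium to the tissue beneath. It maps to chromosome 3 (48564073 to 48595329, - strand), has 119 exons and holds the miRNA gene MIR711. The values were 1156, 1091 and 1106 normalized counts with DMSO and 1365, 1366 and 1474 with Tan I, from 1240, 1133 and 1415 and 1397, 1296 and 1105 reads. The groups did not overlap, and both were tight. The log2 fold change of COL7A1 came to 0.33 ± 0.10 (SE; 0.08 to 0.57, 95% confidence interval), an adjusted p of 0.999 and an unadjusted one of 0.0149 from limma. Without DMSO replicate 3 the value was 0.32 and the call was lost (unadjusted p = 0.0612, limma), and with equal totals in all libraries it was 0.27, also not called. COL7A1, CLDN5 and CCDC80 are drawn in the study's heatmap and were chosen for it in part on these libraries, so their calls are not independent of that choice.

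CCDC80, a secreted matrix protein, had 37.3, 58.8 and 37.5 normalized counts with DMSO and 49.8, 92.7 and 116 with Tan I, from 40, 61 and 48 and 51, 88 and 87 reads. The groups overlapped, since Tan I replicate 1 lay below DMSO replicate 2. The gene (ENSG00000091986) maps to chromosome 3 (112596797 to 112649530, - strand) and has 8 exons. The log2 fold change of CCDC80 was 0.89 ± 0.36 (SE; 0.04 to 1.74, 95% confidence interval), an adjusted p of 0.999 and an unadjusted one of 0.0425 from limma. The call was kept in 11 of 16 alternatives. It was lost without DMSO replicate 1 (0.78), without DMSO replicate 3 (0.78), without Tan I replicate 2 (0.79), without Tan I replicate 3 (0.63) and with quantile normalization (0.92).

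CLDN5, the claudin that dominates tight junctions of blood vessels in the brain, was the member called lower. Its values were 28, 18.3 and 8.60 normalized counts with DMSO and 5.86, 5.27 and 8.0 with Tan I, from only 30, 19 and 11 and 6, 5 and 6 reads. The groups were apart by a narrow margin, DMSO replicate 3 at 8.60 and Tan I replicate 3 at 8.0, and DMSO replicate 1 stood far above the rest. CLDN5 (ENSG00000184113) maps to chromosome 22 (19523024 to 19527545, - strand) and has a single exon. The log2 fold change of CLDN5 was -1.26 ± 0.50 (SE; -2.44 to -0.09, 95% confidence interval), an adjusted p of 0.999 and an unadjusted one of 0.0386 from limma, and DESeq2 gave no adjusted p. The call was kept in 9 of 15 alternatives and lost without DMSO replicate 1 (-0.90), DMSO replicate 2 (-1.19), Tan I replicate 1 (-1.22) or Tan I replicate 2 (-1.16), with quantile normalization (-1.17) and with the replicate block, where the fold change stayed at -1.26 and the unadjusted p was 0.0548 (limma). Of the other 4 listed endothelial markers, none was called lower. TIE1, an endothelial receptor tyrosine kinase, was called higher, with 1257, 1079.7 and 1338 normalized counts with DMSO and 1634, 1529 and 1631 with Tan I (log2 fold change 0.39, unadjusted p = 0.0135, adjusted p = 0.999 from limma), though not with equal totals in all libraries (0.33). VWF, von Willebrand factor, on 12 to 14 reads with DMSO and 4 to 13 with Tan I, was at -0.42 (-1.44 to 0.59), PECAM1 at -0.10 (-0.57 to 0.36) and EGFL7 at 0.14 (-0.50 to 0.79), none of them called.

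Counted by the libraries alone, 8 of the 56 members had groups that did not overlap, beside 7.89% of all genes tested. These were COL16A1, COL7A1, COL11A2, LAMB3 and LAMC3 in the direction of higher (5 members beside 3.92% of all genes) and CLDN5, CLDN12 and COL2A1 in the direction of lower (3 members beside 3.97%). For each, the exact two-sided permutation test gave p = 0.1, the smallest that 3 libraries against 3 allow, and 5 of the 8 were not called by limma. COL11A2, a minor fibrillar collagen, had 168, 130 and 164 normalized counts with DMSO and 182, 255 and 172 with Tan I, a log2 fold change of 0.38 (-0.11 to 0.87, 95% confidence interval). Tan I replicate 2 stood above the other Tan I libraries, which lay close to the DMSO values. COL2A1, the main collagen of cartilage, had 127, 124 and 117 with DMSO and 93.8, 69.6 and 108 with Tan I, a log2 fold change of -0.46 (-0.96 to 0.04). The DMSO libraries of COL2A1 were tight and the Tan I libraries spread. It was called without Tan I replicate 3 (-0.60) and with each library at the same total (-0.52).

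Of the laminins, LAMC3, a gamma chain, had 20.5, 34.7 and 32 normalized counts with DMSO and 42, 45.3 and 46.7 with Tan I, with a log2 fold change of 0.64 (-0.03 to 1.30, 95% confidence interval). The interval of LAMC3 included 0, and the call appeared without DMSO replicate 2 (0.78) and without the variance trend. LAMB3, the beta chain of the laminin that anchors skin epithelium, had 37.3, 50.1 and 49.2 and 50.8, 59 and 56, with a log2 fold change of 0.28 (-0.26 to 0.83). CLDN12, a claudin that lacks the usual docking motif for scaffolds, had 358, 306 and 302 and 274, 279 and 252, a log2 fold change of -0.26 (-0.59 to 0.07). Exons of CLDN12 overlap same-strand exons of GTPBP10, CDK14 and PTTG1IP2, so its reads can be shared with them.

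**Figure D2:**
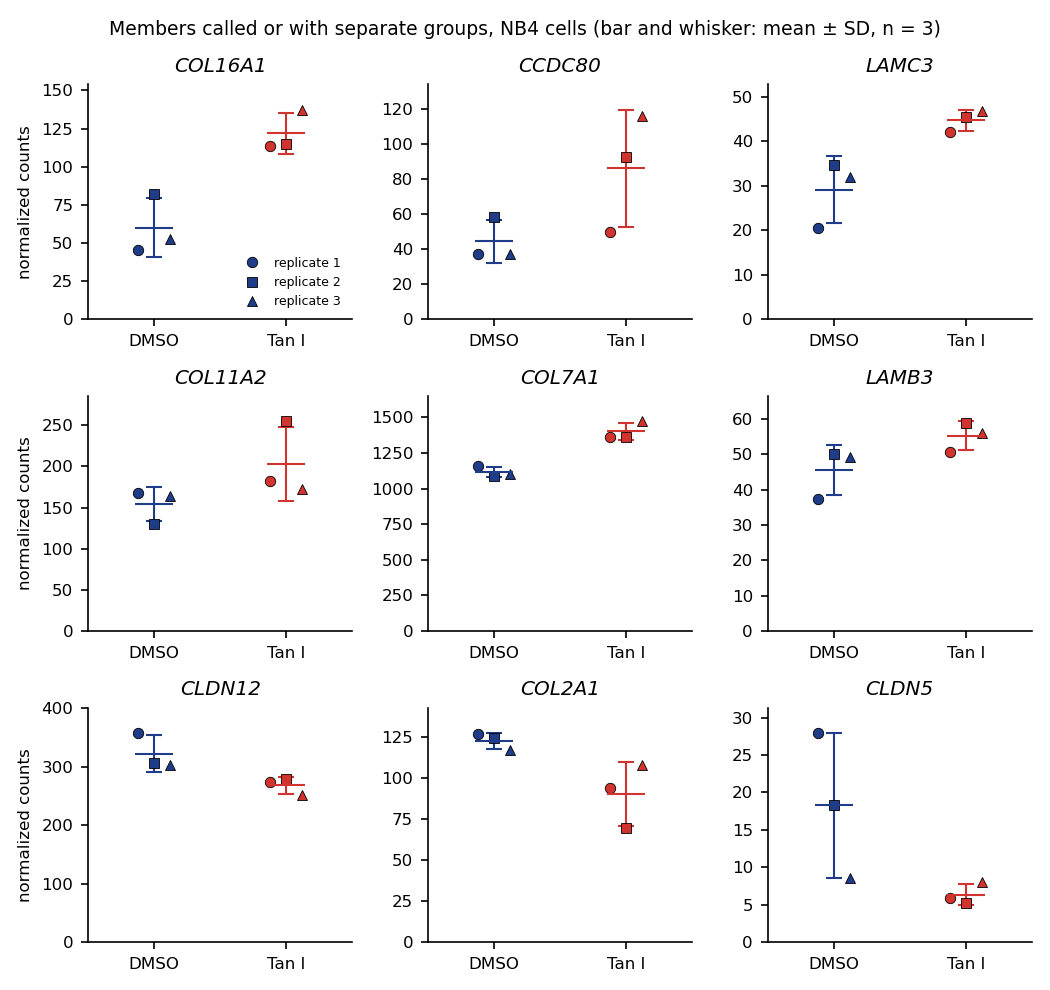
Normalized counts (vertical axis, from 0) of the 9 members that were called or whose groups did not overlap, in each DMSO library (blue) and each Tan I library (red), with marker shape for the replicate number and a bar and whisker for mean ± SD (n = 3). COL16A1 and COL7A1 show clear gaps between the groups, CCDC80 overlaps, and the gap of CLDN5 is narrow, between 8.60 in DMSO and 8.0 in Tan I.

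The RefSeq table of sequences upstream of genes (GRCh38.p14) held 44 of the 60 members. CLDN5, COL2A1 and LAMC3 were not among them. For the 3 called members in the table, the 250 bases before the start are printed 5′ to 3′ on the gene's strand, to show how unlike their upstream sequences are. Capitals mark GGGCGG, the box bound by SP1, on either strand (CCGCCC on the other strand). The stretches are chr3:48595330-48595579 (- strand) for COL7A1, chr1:31704018-31704267 (- strand) for COL16A1 and chr3:112641144-112641393 (- strand) for CCDC80. The start of CCDC80 in this table lies inside the longer gene that GENCODE annotates.
COL7A1: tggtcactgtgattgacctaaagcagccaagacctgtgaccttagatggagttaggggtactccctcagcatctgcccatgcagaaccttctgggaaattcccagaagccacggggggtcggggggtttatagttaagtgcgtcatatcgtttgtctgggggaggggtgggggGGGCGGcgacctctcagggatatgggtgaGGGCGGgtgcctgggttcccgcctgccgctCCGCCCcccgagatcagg
COL16A1: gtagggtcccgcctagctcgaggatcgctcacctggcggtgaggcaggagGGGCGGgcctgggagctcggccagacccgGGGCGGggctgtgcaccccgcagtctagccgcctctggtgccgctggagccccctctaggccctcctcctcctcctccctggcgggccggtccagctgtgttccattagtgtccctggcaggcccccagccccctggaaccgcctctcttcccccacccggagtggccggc
CCDC80: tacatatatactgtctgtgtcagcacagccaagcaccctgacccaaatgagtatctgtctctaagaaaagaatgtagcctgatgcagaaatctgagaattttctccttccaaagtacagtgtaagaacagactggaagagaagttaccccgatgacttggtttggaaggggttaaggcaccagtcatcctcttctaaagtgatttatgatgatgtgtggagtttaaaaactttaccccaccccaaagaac

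COL7A1 held 3 such boxes and a TATAAA on the other strand, and COL16A1 held 2 boxes. CCDC80 had no GGGCGG in its 250 bases, 1 CpG, and a GC content of 42.0%, against 60.8% for COL7A1 and 73.2% for COL16A1. Over windows of 300 bases (250 before and 50 after the start), the 61 windows of the 44 members had a median of 20 CpG and 65.7% GC, beside 14 CpG and 58.7% over all 35116 windows. GGGCGG was in 63.9% of the members' windows and 45% of all. GCGTG, the core bound by the aryl hydrocarbon receptor, was in 34.4% and 36.5%. TGANTCA (AP-1), CACGTG (E-box) and TATAAA, all searched on both strands like the others, none of which contains another, were in 4.92%, 3.28% and 3.28% of the members' windows and in 7.71%, 7.26% and 11.5% of all. These are matches of letters only.

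Over all 56 members tested, the log2 fold changes ran from -1.53 (CLDN20) to 1.05 (COL16A1). Their median was -0.04, with 22 members above 0 and 34 below. Over all genes tested the median was -0.0016, and 49.7% lay above 0. The size was under 0.25 for 31 of the 56. The median of the members turned positive without DMSO replicate 1 (0.04) and without Tan I replicate 3 (0.04), and was -0.13 without DMSO replicate 2.

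Of the collagens, 20 of 22 were tested, and 2 were called, both higher, with 7 above and 13 below 0 and a median of -0.12. The 6 fibrillar collagens had 1 above and 5 below 0, a median of -0.37, and 0 called. COL27A1, the highest of them by counts, had 908, 749 and 833 normalized counts with DMSO and 815, 711 and 476 with Tan I, a log2 fold change of -0.35 (-0.83 to 0.14, 95% confidence interval). Tan I replicate 3 was the lowest library of COL27A1, and without Tan I replicate 1 the gene was called lower (-0.51). COL5A1 and COL5A2, chains of collagen V that set fibril width, and COL1A1 had log2 fold changes of -0.40, -0.48 and -0.23, each with an interval that included 0, and COL5A1 was called lower without DMSO replicate 2 (-0.89).

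Of the abundant collagens, COL7A1 was called higher (0.33) and COL27A1 was at -0.35, as given above. COL23A1, COL9A2, COL9A3 and COL18A1 stayed closer to their DMSO values. COL23A1 had 3509, 3715 and 3540.4 normalized counts with DMSO and 3425, 4214 and 3971 with Tan I, a log2 fold change of 0.10 (-0.17 to 0.38, 95% confidence interval). COL9A2 and COL9A3 had log2 fold changes of -0.06 (-0.38 to 0.26) and -0.07 (-0.34 to 0.20). These intervals hold changes of up to about 0.38 in size. COL18A1, the basement membrane collagen from which endostatin is cut, had 382, 315 and 348 and 386, 349.9 and 305 normalized counts, a log2 fold change of -0.01 (-0.36 to 0.34), and some of its exons overlap SLC19A1 on the other strand. COL6A1 had 1248, 1007 and 1361 and 1104, 1060.2 and 1026, at -0.17 (-0.49 to 0.15), and was called lower without DMSO replicate 2 (-0.29). COL6A3, another chain of collagen VI, went the other way at 0.45 (-0.27 to 1.16), with the highest value, 90.9, in Tan I replicate 1. COL14A1, at -0.58 (-1.56 to 0.41), and COL28A1, at -0.60 (-1.85 to 0.65), had wide intervals. COL26A1, too low to be tested, had 12, 10 and 13 reads with DMSO and 4, 3 and 7 with Tan I, and COL15A1 5, 12 and 11 and 6, 8 and 6.

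The 6 laminin chains tested had 5 above 0 and 1 below, a median of 0.15, and 0 called. LAMC1 had 3161, 2558 and 3176 normalized counts with DMSO and 3532, 3095 and 2547 with Tan I. The groups overlapped across most of their range, with DMSO replicate 2 and Tan I replicate 3 the lowest of each. Its log2 fold change was 0.04 (-0.33 to 0.41, 95% confidence interval) and turned negative without DMSO replicate 2, without Tan I replicate 1, with quantile normalization and with each library at the same total. LAMB2 was at 0.07 (-0.37 to 0.51) and LAMA5 at 0.22 (-0.68 to 1.13).

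The 8 claudins tested had 2 above and 6 below 0, with a median of -0.22, and 1 was called, CLDN5. CLDN15, the highest, had 695, 828 and 738 normalized counts with DMSO and 699, 790.4 and 689 with Tan I, a log2 fold change of -0.05 (-0.35 to 0.24, 95% confidence interval). CLDN9 had 186, 243 and 159 and 192, 307 and 263, at 0.36 (-0.19 to 0.91), and was called higher without Tan I replicate 1 (0.55). The epithelial claudins CLDN3, CLDN4 and CLDN7 were at 0.26, -0.25 and -0.19, none called, beside 0.29 for EPCAM and 0.34 for KRT8. CLDN20, chosen after its values were seen, had the lowest fold change of any member and 57.8, 15.4 and 36.7 normalized counts with DMSO against 40.1, 6.32 and 4.0 with Tan I. These values overlap, its interval was -3.51 to 0.44, and Tan I replicates 2 and 3 rest on 6 and 3 reads. CLDN20 was called lower without Tan I replicate 1 (-2.45), the highest of its group, and with the replicate block, where the fold change did not move. Of the TJP scaffolds, TJP3 had 162, 175 and 164 and 168, 203 and 229, at 0.25 (-0.15 to 0.65), not called.

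The 7 cadherins and protocadherins tested had 4 above and 3 below 0, a median of 0.02, and 0 called. CDH24 was the steadiest member, with 1042, 902 and 1042 normalized counts with DMSO and 1025, 1028 and 1011 with Tan I, a span of 1.16-fold over the 6 libraries. Its log2 fold change was 0.04 (-0.22 to 0.30, 95% confidence interval), slightly negative without DMSO replicate 2 and with each library at the same total. CDH26 had 119, 80.9 and 93.8 and 101, 109 and 70.7, at -0.08 (-0.65 to 0.50). PCDH9, a protocadherin, had 366, 175 and 250 and 336, 222 and 127, at -0.25 (-1.18 to 0.67). In PCDH9 and CDH26 the spread within a group was wider than the difference between groups, and both turned positive without DMSO replicate 1 (0.02 and 0.07) or without Tan I replicate 3 (0.12 and 0.11). CDH17, below the mean set for the test, had 9, 3 and 18 reads with DMSO and 10, 0 and 5 with Tan I, and so was listed at 0 in 1 library.

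Of the 5 fibrillins and fibulins, 1 was above 0 and 4 below, and 0 were called. FBN2 had 1193, 1070.1 and 1079 normalized counts with DMSO and 1253, 946 and 804 with Tan I, a log2 fold change of -0.18 (-0.58 to 0.23, 95% confidence interval), and was called lower without Tan I replicate 1 (-0.35). FBN1, fibrillin-1, had 407, 195 and 281 and 364, 262 and 172, at -0.15 (-0.95 to 0.66). The value of FBN1 turned positive without DMSO replicate 1 (0.12) or Tan I replicate 3 (0.13). Of the 5 lysyl oxidases, 1 was above 0 and 4 below, and 0 were called. LOXL3 had 195, 198 and 213 and 183, 208 and 209, at -0.02 (-0.36 to 0.32), LOX was at -0.03 (-0.61 to 0.56), and LOXL4 was at -0.38 (-0.96 to 0.19), with its highest value, 209, in DMSO replicate 2. SPARC had 1380, 1787 and 1618 normalized counts with DMSO and 1354, 1537 and 1787 with Tan I, at -0.03 (-0.39 to 0.32), and FN1, fibronectin, was at -0.22 (-1.10 to 0.66).

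**Figure D3:**
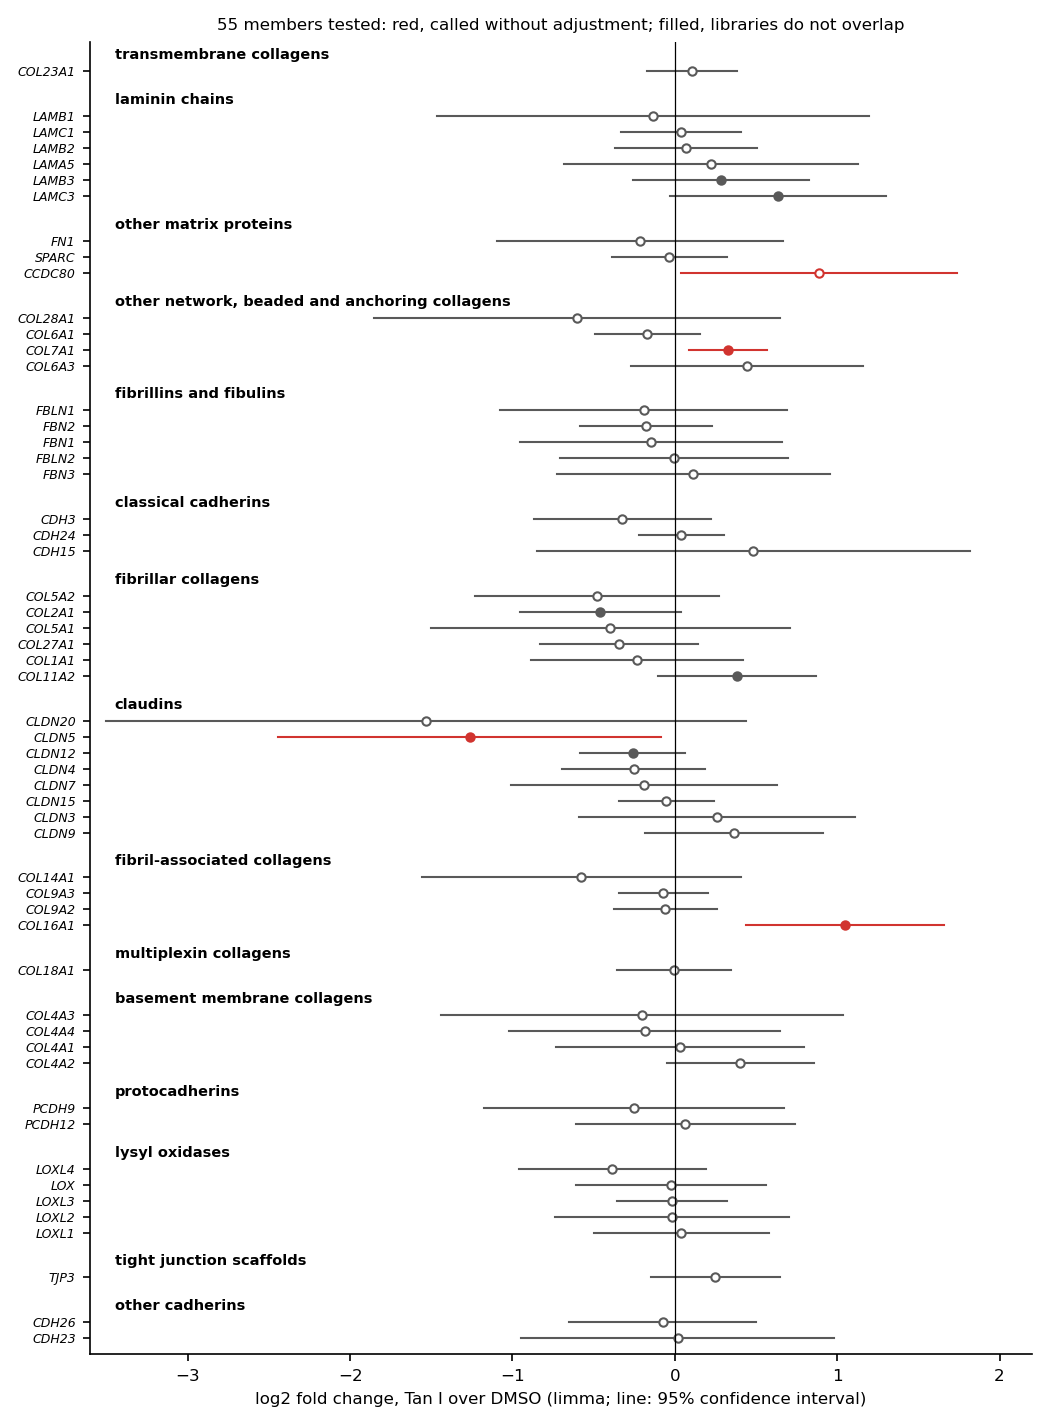
Log2 fold change after Tan I relative to DMSO from limma (horizontal axis) for 55 of the 56 members tested, by class, with the 95% confidence interval as a line, called members in red and filled points where the libraries of the groups did not overlap. Most intervals cross 0; COL16A1 at 1.05, CCDC80 at 0.89, COL7A1 at 0.33 and CLDN5 at -1.26 do not.

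Members that pair in 1 protein or share a locus were compared by their ratio in each library. COL4A1 and COL4A2, which together make the main collagen of basement membranes, lie head to head on chromosome 13. The RefSeq starts of this pair are 126 bases apart, and the whole stretch between them, chr13:110307158-110307283, is printed on the + strand with GGGCGG in capitals. COL4A3 and COL4A4, of kidney and lung basement membranes, lie head to head on chromosome 2 with 418 bases between their RefSeq starts. The 250 bases before the start of COL4A3, chr2:227164374-227164623 on the + strand, are printed with capitals for the 82 bases that the window of COL4A4 also covers.
COL4A1 to COL4A2: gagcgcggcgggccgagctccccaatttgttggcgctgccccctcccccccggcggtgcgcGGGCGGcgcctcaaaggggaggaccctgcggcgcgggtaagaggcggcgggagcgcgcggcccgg
COL4A3: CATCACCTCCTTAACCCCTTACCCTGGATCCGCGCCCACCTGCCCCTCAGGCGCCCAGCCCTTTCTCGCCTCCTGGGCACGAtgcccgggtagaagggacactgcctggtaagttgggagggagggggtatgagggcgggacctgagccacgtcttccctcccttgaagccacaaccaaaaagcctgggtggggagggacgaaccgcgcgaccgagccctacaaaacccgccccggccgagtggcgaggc

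Neither pair moved as a unit across the libraries. COL4A2 had 199.5, 263 and 222 normalized counts with DMSO and 248, 295 and 368 with Tan I, and COL4A1 66.2, 39.5 and 46.9 and 72.3, 48.5 and 37.3. COL4A2 had its highest value and COL4A1 its lowest in Tan I replicate 3. The ratio of COL4A1 to COL4A2 was 0.332, 0.15 and 0.211 in DMSO and 0.291, 0.164 and 0.101 in Tan I, and the groups overlapped (p = 0.5 in an exact two-sided permutation test). The log2 fold change of COL4A2 was 0.40 (-0.05 to 0.86, 95% confidence interval), and it was called higher without DMSO replicate 2 (0.51) or Tan I replicate 1 (0.54). COL4A1 was at 0.03 (-0.73 to 0.79).

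COL4A3 had 29.8, 14.4 and 32.8 normalized counts with DMSO and 42, 17.9 and 12 with Tan I, and COL4A4 34.5, 38.5 and 35.2 and 28.3, 51.6 and 21.3, so the ratio ran from 0.347 to 1.48 over the libraries (exact permutation test, p = 1). Collagen IX was steady by contrast in these values: COL9A2 to COL9A3, genes on different chromosomes, had a ratio of 0.945 ± 0.0690 with DMSO and 0.953 ± 0.0690 with Tan I (SD, n = 3, exact permutation test, p = 1). CLDN3 to CLDN4, neighbors on chromosome 7, had a ratio of 0.107 ± 0.0168 with DMSO and 0.158 ± 0.0397 with Tan I (SD, n = 3, exact permutation test, p = 0.2). The ratio of LAMB1 to LAMC1 was 0.0369 ± 0.0203 with DMSO and 0.0308 ± 0.0119 with Tan I (SD, n = 3, exact permutation test, p = 0.8). LAMB2 to LAMC1 was at 0.0245 ± 0.00318 with DMSO and 0.0252 ± 0.00499 with Tan I. Each of these ratios was tested once, and none reached the smallest p that the design allows.

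**Figure D4:**
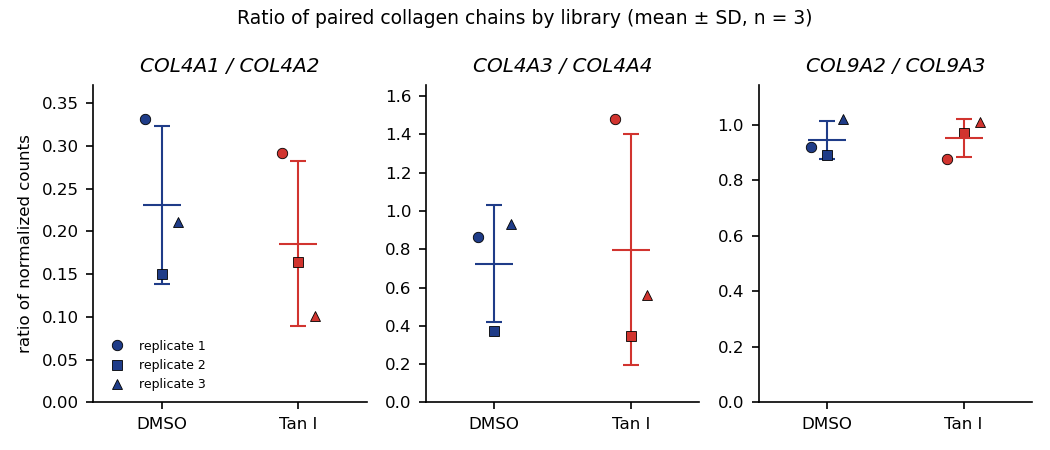
Ratio of normalized counts of COL4A1 to COL4A2, COL4A3 to COL4A4 and COL9A2 to COL9A3 (vertical axes, from 0) in each DMSO library (blue) and Tan I library (red), with marker shape for the replicate number and a bar and whisker for mean ± SD (n = 3). The groups overlap in each panel, and the ratio of COL9A2 to COL9A3 stays near 0.945 while those of the collagen IV pairs spread widely.

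The spread between libraries was large for several members and was shared by libraries of both groups. DMSO replicate 2 and Tan I replicate 3, which lie together on the first principal component, were the lowest of their groups for 20 of the 56 members (35.7%) and the highest for 7 (12.5%), beside 32.1% and 35.0% of all genes tested. The 20 members had a median exonic length of 11722 bases, the 7 in the opposite order 8939 and the 29 with neither pattern 5596. For all genes these medians were 6096, 3544 and 4295. LAMB1, a laminin beta chain chosen as an example after its values were seen, had 184, 45.3 and 111 normalized counts with DMSO and 153, 89.6 and 50.7 with Tan I, with its low values in these 2 libraries.

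The matrix genes FBN1, COL4A3 and FN1 and the protocadherin PCDH9 followed the same order of libraries. The 7 members in the opposite order were CCDC80, COL4A2, TJP3, CLDN4, SPARC, COL16A1 and LAMC3. For CCDC80 and COL16A1 the differences between groups therefore sit beside a difference within groups: DMSO replicate 1 had 0.635 times the value of DMSO replicate 2 for CCDC80 and 0.558 times for COL16A1. COL16A1 was still called without DMSO replicate 2 (1.29) and without Tan I replicate 3 (0.96), and CCDC80 was called without the first (1.10) and not without the second (0.63). The part of this gradient in the members' differences was not tested.

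**Figure D5:**
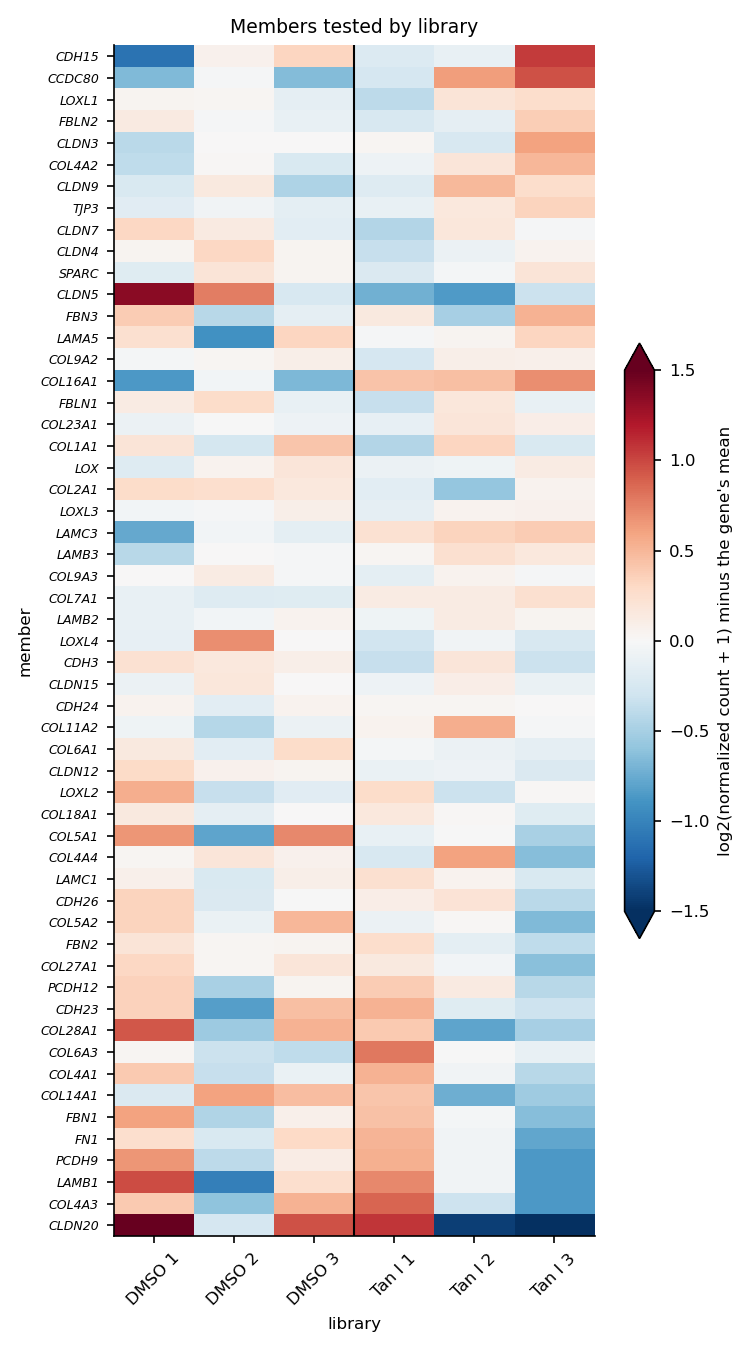
Deviation of 55 of the 56 members tested from its own mean in each library, as log2(normalized count + 1) (color scale from -1.5 to 1.5, red above and blue below the mean), members sorted by Tan I replicate 1 minus Tan I replicate 3. Toward the bottom, members such as LAMB1, with 153, 89.6 and 50.7 normalized counts in Tan I, are blue in DMSO replicate 2 and Tan I replicate 3, while COL16A1 changes color between the groups.

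Genes that work with the members were read from lists of general knowledge: 98 of 147 were listed, 95 tested and 5 called, beside 2.42% of all genes, with 0 called after adjustment in limma, edgeR and DESeq2. Of the enzymes and chaperones of collagen synthesis, 27 of 33 were listed and all 27 tested, with 19 above and 8 below 0, and 0 were called. P4HB, the protein disulfide isomerase that is also the beta subunit of prolyl 4-hydroxylase, had 29552 ± 961 normalized counts with DMSO and 35763 ± 4442 with Tan I (SD, n = 3), at 0.27 on the log2 scale (-0.08 to 0.62, 95% confidence interval). The libraries of P4HB did not overlap between the groups, and it was called higher by DESeq2 (0.27) and without Tan I replicate 1 (0.37). Of the basement membrane and matrix partners, 14 of 30 were listed and 2 called. LTBP4, which holds latent TGF-beta in the matrix, was called lower, from 281 ± 17.9 normalized counts to 195 ± 8.40 (SD, n = 3; log2 fold change -0.53, unadjusted p = 0.00594, adjusted p = 0.999 from limma) and was called in all 16 alternatives. TNC, tenascin-C, was called higher (0.89, unadjusted p = 0.0294 from limma) on 10 to 13 reads with DMSO and 17 to 19 in Tan I, and the call was lost in 7 of 15 alternatives, among them each library left out other than DMSO replicate 2 (0.83 without DMSO replicate 1, 0.88 without DMSO replicate 3, and 0.94, 0.97 and 0.77 without Tan I replicates 1, 2 and 3). AGRN, agrin, the highest of the list, was at -0.05.

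Of the collagen and laminin receptors, 20 of 22 were listed and 19 tested. Of those tested, 16 were below 0 and 3 above, where 49.7% of all genes tested lay above 0, and 1 was called. DAG1, dystroglycan, which binds laminin, went from 565 ± 30.5 normalized counts with DMSO to 424 ± 32.2 with Tan I (SD, n = 3; log2 fold change -0.42, unadjusted p = 0.0114, adjusted p = 0.999 from limma), and the call was lost without Tan I replicate 2 (-0.35). RPSA, a ribosomal protein also described as a laminin receptor, had 68775 ± 16021 and 73827 ± 25217. Of the catenins and cadherin partners, 19 of 33 were listed, and NECTIN1, a junction adhesion protein, was called lower (-0.48, unadjusted p = 0.0284 from limma), though not without DMSO replicate 2 (-0.33), Tan I replicate 1 (-0.45) or Tan I replicate 2 (-0.41). CLSTN1, calsyntenin-1, the highest of that list, was at -0.06. Of the tight junction partners, 18 of 29 were listed, and JAM3, a junctional adhesion molecule, was called higher (1.01, unadjusted p = 0.0297 from limma) on 7 to 9 reads with DMSO and 11 to 15 in Tan I, with the call lost in 7 of 15 alternatives, again each library left out other than DMSO replicate 2 among them (0.99 and 0.88 without DMSO replicates 1 and 3, and 1.06, 0.96 and 1.01 without Tan I replicates 1, 2 and 3). SYMPK, symplekin, was at 0.10.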

How the data were processed

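According to the methods, reads were paired-end, were mapped to GRCh38 by STAR, were dropped where they mapped to more than one place, and were counted per gene by featureCounts before DESeq2. Versions, annotation release and strand setting are not given in the sources used here, so reads of overlapping genes cannot be told apart (among members, COL4A3 with MFF-DT, COL9A3 with TCFL5, LAMB1 with DLD and SPARC with CLMAT3, besides those named above). The signal deposited by the authors for each library is normalized counts, that is, counts of reads over a size factor. All values (100%) gave whole reads within 0.01. The table also holds the authors' fold changes and p-values, which were not used.

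Genes with a mean of at least 10 normalized counts were tested with limma 3.58.1 (R 4.3.3, mean-variance trend) on log2(normalized count + 1), treatment as the only term, Benjamini-Hochberg adjustment over 16887 genes. edgeR 4.0.16 (quasi-likelihood, TMM) and DESeq2 1.42.0 on the recovered reads were alternatives. Other alternatives were pseudocounts of 0.1 and 10, no filter, a mean of at least 50, quantile normalization, equal totals, no variance trend, a replicate block, each library left out, and a log2 fold threshold of 1. Intervals are 95%. The scripts were tested on simulated reads, drawn for each gene independently and without a gradient shared between libraries. That test therefore cannot show how the fits behave with the gradient seen here. Named genes were the members drawn in the study's heatmap, those called or with groups that did not overlap, the 20 with the highest means, and the highest of each class. For the partner lists they were the genes called and the highest of each list. Any other gene was chosen after its values were seen. Members and lists were chosen with earlier results of these data known. Positions are from GENCODE release 44, and 99.6% of identifiers matched. No 2 libraries agreed within sampling noise. For 1 member tested, which enters the counts, values are not reported here.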

Additional observations from a re-analysis of the deposited data

How the results depend on the processing

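Depth limits members with few reads, such as CLDN5 and CLDN20, and counting error adds to the spread of any gene with under 50 reads. With 3 libraries against 3, a single-gene permutation test cannot pass 0.05. The count of called members was 4. It was 2 with quantile normalization and 2 with a log2 fold threshold of 1, and ran from 2 to 8 with 1 library left out (2 without DMSO replicate 1, DMSO replicate 3 or Tan I replicate 2, 7 without DMSO replicate 2 and 8 without Tan I replicate 1). The 2 without Tan I replicate 2 and the 8 without Tan I replicate 1 stood beside 160 and 1496 of the 16887 genes tested. A rise or fall in the members' count was not separated from that over all genes. The partner lists had 5 called, 3 with a mean of at least 50, 1 with the fold threshold of 1, and 2 to 8 with 1 library left out. All genes had 408 called, 49 with the fold threshold of 1, and 160 without Tan I replicate 2 to 1496 without Tan I replicate 1, the lowest and highest with 1 library left out; DESeq2 called 16 after adjustment where limma called 0. The members' median of -0.04 ran from -0.13 to 0.040 with 1 library left out. The counts of members called after adjustment were 0 in all 17 alternatives. The causes of these shifts were not tested, apart from the fewer genes that a stricter threshold or filter leaves.

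The labels do not say whether the replicate numbers pair the samples. The deviations of same-numbered libraries correlated at 0.75, -0.09 and -0.45 across genes, and not every library correlated best with its own number. The first principal component, with 70.8% of the variance, enters these correlations, so they cannot decide whether the numbers pair the samples. With the number as a block, 4 members (COL7A1, COL16A1, CCDC80 and CLDN20, 3 of them shared), 6 partners and 348 genes were called.

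Of 588 values of the 37 named genes tested, 520 kept their direction and side of the threshold, 31 lost the call, 12 gained one and 25 changed sign. LAMC1 was -0.011 with quantile normalization and -0.021 with equal totals, CDH24 was -0.020 with equal totals, and RPSA was -0.0051 with quantile normalization. The other changes of sign came from leaving out 1 library. Without DMSO replicate 2 or Tan I replicate 1, LAMC1 was negative and SPARC positive (ranges with 1 library left out -0.071 to 0.16 and -0.14 to 0.063), COL9A2 was positive without the latter (-0.12 to 0.056), and CLDN15 was positive (-0.11 to 0.017) and CDH24 negative (-0.030 to 0.074) without the former. Without DMSO replicate 1 or Tan I replicate 3, COL18A1 (-0.087 to 0.082), FBN1 (-0.41 to 0.13), PCDH9 (-0.59 to 0.12), CDH26 (-0.20 to 0.11) and AGRN (-0.14 to 0.051) were positive and RPSA (-0.18 to 0.30) negative. LOXL3 was positive without DMSO replicate 3 or Tan I replicate 1 (-0.052 to 0.045). None of these genes was called before.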
